A study of Rattus norvegicus with 6 samples.

Results

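Smooth muscle and actomyosin genes were compared between mesenchymal stem cells (MSC) from 2 sites of the rat skeleton. The genes were chosen by symbol from a list of 41 names. The names cover contractile proteins of muscle, their counterparts in other cells and actin-binding proteins. They also cover genes known to be regulated by SRF or its MRTF cofactors, and the regulators SRF and myocardin. Of these names, 40 were found among the 30498 genes that were counted. Of them, 1 (Actg1) stood for 2 genes, which gave 41 genes in all. The level of Synpo was not analysed here. All 41 passed the low-count filter and entered the test.

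The series measured RNA by sequencing in 6 libraries of wild-type rat MSC. Of these, 3 were labelled rcMSC, from cranial bone marrow, and 3 rbMSC, from the bone marrow of femur and tibia. The sources used here give no strain, age or passage of the rats and cells, and name no treatment for either group. They do not say whether replicates are separate cultures or animals, so a p-value here covers the spread among libraries alone, and that spread may be technical.

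Muscle contraction and the tension of non-muscle cells use the same machine: filaments of actin pulled by myosin II, a motor made of heavy chains, essential light chains and regulatory light chains. Kinases phosphorylate the regulatory light chain to switch the motor on, and a phosphatase switches it off. Most parts come as paralogs, some made chiefly by muscle and others by nearly every cell. Serum response factor (SRF), with its cofactors of the myocardin and MRTF family, binds CArG boxes near many of these genes, and marrow stromal cells in culture commonly make smooth muscle proteins such as alpha-actin and transgelin.

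The libraries held 21340290 to 26928079 counts. Levels are in CPM, a count relative to the depth of its library, here after TMM scaling, which corrects that depth for composition, and 1 count was worth 0.0364 to 0.0468 CPM. Replicate 3 of rcMSC stood apart from the others of its group: its counts differed from theirs with a chi-square per degree of freedom of 42.0 to 42.8, against 2.69 to 3.16 for the other pairs within a group. Without it, 4558 of 15096 genes tested were lower and 4512 higher, against 3445 and 3351 of 14836 with it, and 33 of the 41 genes were lower and 6 higher. Of the 41, the calls of Des and Smtn change without it, and both values are given for them. All 10 stromal markers chosen to check the label were present, with Thy1 at 1097 ± 14.5 CPM in rbMSC and 505 ± 6.91 in rcMSC (SD, n = 3 each). Of these markers 6 were lower and 4 higher in rcMSC. Their summed level was 41600.0 to 41810.0 CPM in rbMSC and 59880.0 to 73670.0 in rcMSC. Most of that sum came from the collagen genes Col1a1 and Col1a2, both among those higher. Their means were 21196 and 15886 CPM in rbMSC, and 37884 and 23266 in rcMSC.

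In rcMSC, 32 of the 41 genes were lower than in rbMSC, 5 were higher and 4 did not pass the threshold, an adjusted p under 0.05 in edgeR's quasi-likelihood test over all genes. Over the 14836 genes tested, 45.8% passed, with 23.2% lower and 22.6% higher. In 33 of the 41 genes every rcMSC library lay below every rbMSC library, and in 5 every one lay above, against 28.8% and 28.3% of all genes tested. The median log2 fold change, rcMSC over rbMSC, was -0.66 for these genes and 0.02 for all genes tested. At least 2-fold changes were found in 11 lower genes and 1 higher gene, where the background was 8.53% and 5.76%. Together the 41 genes took 3.75% to 3.81% of the counts in rbMSC and 2.29% to 2.58% in rcMSC.

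By textbook knowledge the genes were sorted into 16 muscle-type genes, 6 mixed genes that serve smooth muscle and other cells alike, and 19 ubiquitous ones. Earlier results of these data were known when the classes were chosen. Of the muscle-type genes 12 were lower, 1 was higher and 3 did not pass, with a median log2 fold change of -0.95. Of the ubiquitous genes 16 were lower and 3 higher, with a median of -0.53. Among the mixed genes 4 were lower, 1 was higher and 1 did not pass, with a median of -0.55. Both larger classes were mostly lower; whether they differ from each other was not tested. The muscle-type values ran from -4.84 to 0.63, and the ubiquitous values from -1.55 to 0.51. At least 2-fold falls were counted in 7 of 16 muscle-type, 2 of 6 mixed and 2 of 19 ubiquitous genes. The share over all genes tested was 8.53%, and the ubiquitous count was near it. Lower by any size were 23.2% of all genes tested, and higher 22.6%. In these bulk libraries, fewer cells that express a gene and less of its RNA in each cell cannot be told apart.

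**Figure D1:**
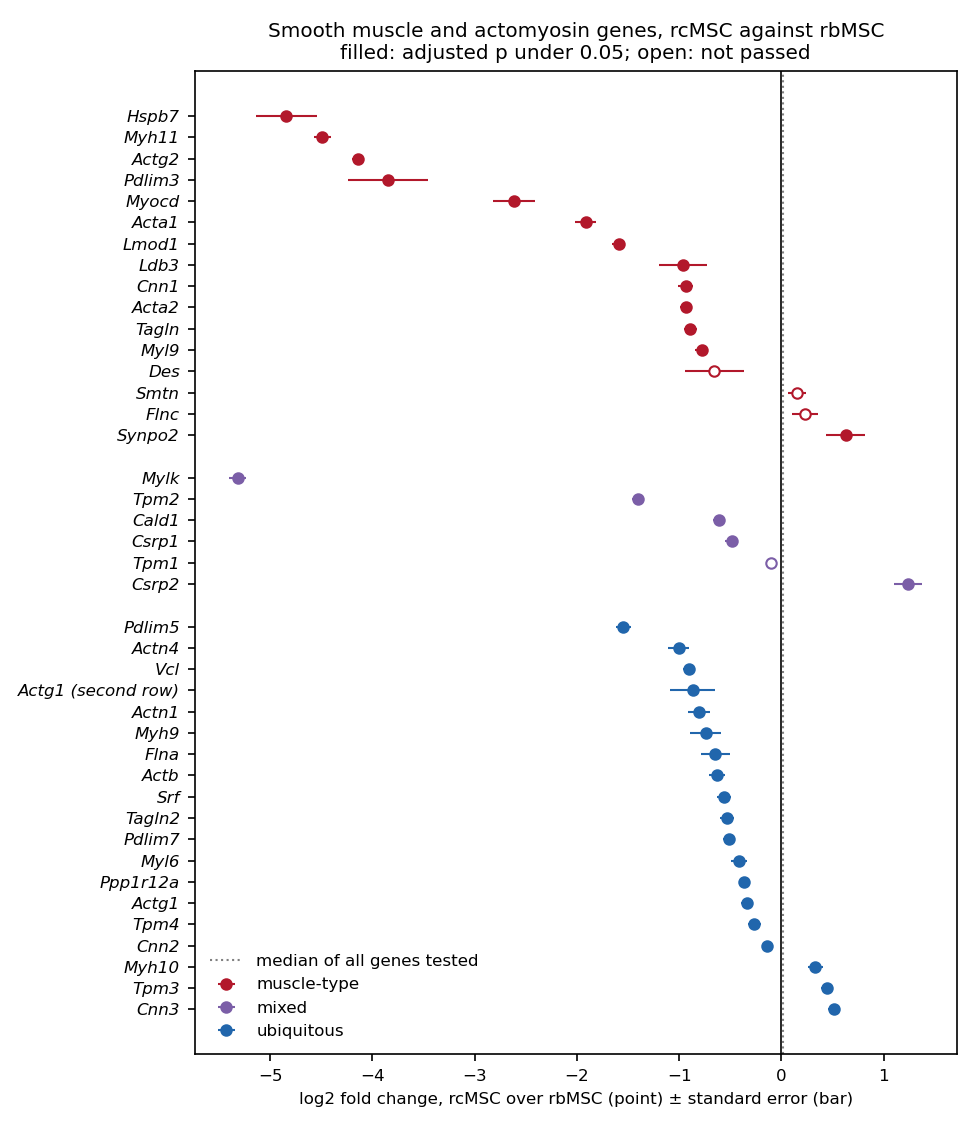
Log2 fold change of each gene (x axis, rcMSC over rbMSC) with its standard error, by class (muscle-type red, mixed purple, ubiquitous blue; filled points passed an adjusted p of 0.05, open ones did not; the dotted line is the median of all genes tested). Mylk, Hspb7, Myh11, Actg2 and Pdlim3 lie below -3, while the ubiquitous genes lie between -1.55 and 0.51.

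Per kilobase of gene length, the scale on which genes can be ranked, the cytoplasmic actin Actb was the most abundant of the set in both groups, at 2123 CPM per kilobase in rbMSC and 1369 in rcMSC. The smooth muscle actin Acta2 came next, at 1833 and 961. In rbMSC the third place was held by Tagln (985 ± 40.3, SD, n = 3), followed by Actg1 (847 ± 36.3) and Flna (839 ± 17.5), of which the last 2 do not differ beyond their spread. Actg2 held place 13 of 41 in rbMSC and place 29 in rcMSC, Myh11 places 25 and 34, and Mylk places 30 and 37.

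The actins were read first. Their coding sequences are nearly identical, and the sources used here do not say how reads that map to several places were counted, so the split between them is uncertain. Actg2 (ENSRNOG00000029401, chromosome 4, 116021832 to 116046465, - strand), the smooth muscle gamma-actin of gut and bladder, had 293, 281 and 292 CPM in the rbMSC libraries, in the order of their numbers, and 16.2, 16.3 and 16.6 in those of rcMSC. Gene positions are in the mRatBN7.2 build. The groups were far apart, about 17.6-fold, with little spread inside each (log2 fold change -4.14 with an SE of 0.06, adjusted p = 5.11e-11 in edgeR). Acta1 (ENSRNOG00000017786, chromosome 19, 51883715 to 51886742, - strand), the skeletal muscle alpha-actin, was a minor actin here, at 22, 25.2 and 25 CPM in rbMSC and 6.23, 6.77 and 6.16 in rcMSC (log2 fold change -1.91 with an SE of 0.10, adjusted p = 2.17e-07 in edgeR).

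Acta2 (ENSRNOG00000058039, chromosome 1, 231746548 to 231759554, - strand), the smooth muscle alpha-actin by which myofibroblasts are recognised, stayed abundant in both groups. It measured 2999, 2873 and 3043 CPM in rbMSC and 1509, 1578 and 1587 in rcMSC, where no rcMSC library reached an rbMSC one (log2 fold change -0.93 with an SE of 0.06, adjusted p = 6.75e-07 in edgeR). The cytoplasmic actins, which build the cortex and stress fibres of all cells, were also lower. Actb measured 4170.5, 4309 and 4318 CPM in rbMSC against 2539.7, 2648 and 3065 in rcMSC (log2 fold change -0.63 with an SE of 0.08, adjusted p = 8.63e-05 in edgeR). Actg1 on chromosome 10 measured 1944, 2117 and 2052 against 1599, 1598 and 1640.5, the smallest fall of the actins (log2 fold change -0.34 with an SE of 0.06, adjusted p = 0.000931 in edgeR). The second gene named Actg1, on chromosome 3, had 9.26, 14.1 and 14.7 CPM in rbMSC and 5.17, 8.69 and 7.08 in rcMSC (log2 fold change -0.87 with an SE of 0.22, adjusted p = 0.0108 in edgeR). Of its 1875 exon bases, 1806 lie within a gene on the opposite strand that had 700.5 CPM in rbMSC, and without a stated strand setting the reads of both cannot be told apart.

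Muscle-type actins took 39.7% to 41.9% of the actin counts per kilobase in the rbMSC libraries and 31.1% to 33.3% in the rcMSC libraries. The second gene named Actg1 was left out of the actin shares. Shares like these are given as a description, without a test. Actg2 alone held 4.04% to 4.25% of the actins in rbMSC and 0.372% to 0.406% in rcMSC, and Acta2 held 35.3% to 37.3% in rbMSC and 30.6% to 32.8% in rcMSC. The ratio of Actg2 to Acta2 was 0.112 to 0.114 in rbMSC and 0.0121 to 0.0125 in rcMSC. The fold between the groups was thus much larger for Actg2 than for Acta2.

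The myosin II heavy chains are the motor itself. Myh11 (ENSRNOG00000057880, chromosome 10, 743685 to 838459, + strand), the heavy chain of smooth muscle, had 369, 331 and 344 CPM in rbMSC and 16.1, 16.2 and 14.2 in rcMSC. That is a 22.4-fold difference, with the 3 libraries of each group close together (log2 fold change -4.49 with an SE of 0.08, adjusted p = 1.14e-10 in edgeR). Myh9, the widely made non-muscle heavy chain IIA, measured 3996, 3726 and 3922 CPM in rbMSC and 1948, 2047 and 2977 in rcMSC (log2 fold change -0.74 with an SE of 0.15, adjusted p = 0.00476 in edgeR). The third rcMSC library lay above the other two, and without it the value was -0.96. Myh10, the non-muscle heavy chain IIB, went the other way, with 458, 400.1 and 416 CPM in rbMSC and 501, 519 and 582 in rcMSC (log2 fold change 0.33 with an SE of 0.07, adjusted p = 0.00497 in edgeR).

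Myh11 made up 9.92% to 10.3% of the heavy chain counts per kilobase in rbMSC and 0.545% to 0.883% in rcMSC. Over the same libraries Myh10 held 10.2% to 10.9% in rbMSC and 19.0% to 23.5% in rcMSC, while Myh9 held 78.8% to 79.9% and 75.7% to 80.5%. In both groups the heavy chain pool was mainly Myh9. Beside it rbMSC had Myh11 and Myh10 at similar shares, and rcMSC had mostly Myh10.

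Of the proteins that switch the motor, Mylk changed most, and it also had the lowest log2 fold change of all 41 genes. Mylk (ENSRNOG00000002215, chromosome 11, 65783008 to 66030261, - strand), the kinase that phosphorylates the regulatory light chain and that is made in a short smooth muscle form and a long non-muscle form, had 304, 302 and 299.9 CPM in rbMSC. In rcMSC it had 7.28, 6.96 and 8.48 CPM, about 39.9 times less (log2 fold change -5.32 with an SE of 0.08, adjusted p = 6.51e-11 in edgeR). It ranked 38 from the lowest among the 14836 genes tested. The counts are per gene, so the 2 forms were not separated.

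The light chains themselves fell less. Myl9, the regulatory light chain of smooth muscle and stress fibres, had 198, 183 and 197 CPM in rbMSC and 105, 118 and 114 in rcMSC (log2 fold change -0.78 with an SE of 0.06, adjusted p = 5.09e-06 in edgeR). Myl6, the essential light chain, had 235, 226 and 249 against 179, 195 and 157 (log2 fold change -0.42 with an SE of 0.08, adjusted p = 0.002 in edgeR). For Ppp1r12a, the subunit that brings the phosphatase to myosin, the values were 462, 442 and 454 in rbMSC and 356, 348 and 349 in rcMSC (log2 fold change -0.37 with an SE of 0.05, adjusted p = 0.000251 in edgeR). In all 3 every rcMSC library lay below every rbMSC library, as in 28.8% of all genes tested.

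Over all genes tested, 23.2% were lower and 22.6% higher. A list of 17 further genes of light chain control gave 12 that were tested. Of these 7 were lower, 0 were higher and 5 did not pass in edgeR, with a median of -0.40. The number higher was also 0 at an unadjusted p under 0.05 and in DESeq2, and 1 in voom and without rcMSC replicate 3. Mylk3, a kinase related to Mylk and known from the heart, was scarce and fell from 2.47 ± 0.419 to 0.241 ± 0.0706 CPM (each ± SD, n = 3) (log2 fold change -3.34 with an SE of 0.32, adjusted p = 1.79e-05 in edgeR). Ppp1r14a, the inhibitor of myosin phosphatase called CPI-17, fell from 2.69 ± 0.551 to 0.483 ± 0.179 CPM (log2 fold change -2.48 with an SE of 0.31, adjusted p = 0.000117 in edgeR). Pak1, a kinase downstream of Rac and Cdc42, fell by 0.64 on the log2 scale (edgeR adjusted p = 9.05e-06).

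**Figure D2:**
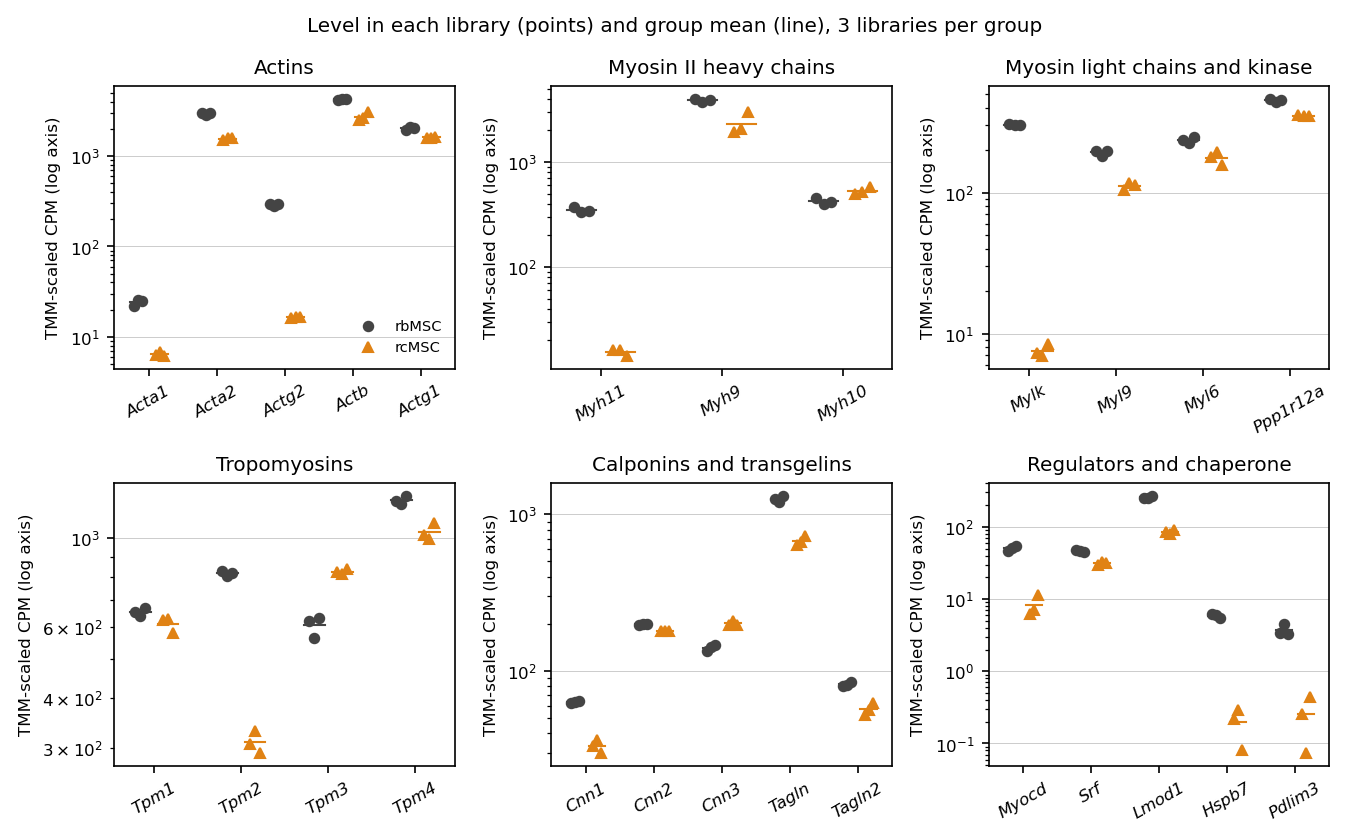
TMM-scaled CPM (y axis, log scale) in each of the 3 rbMSC (grey circles) and 3 rcMSC libraries (orange triangles), with the group mean as a line. Actg2, Myh11 and Mylk are over 10 times apart between the groups, while Acta2, Myl9 and Tagln differ by about 2-fold or less and Myh10, Tpm3 and Cnn3 are higher in rcMSC.

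Tropomyosins lie along the actin filament and govern which myosins reach it. Tpm2 (ENSRNOG00000016731, chromosome 5, 57770864 to 57779992, - strand), prominent in muscle, had 828, 805 and 822 CPM in rbMSC and 306, 331 and 291 in rcMSC (log2 fold change -1.40 with an SE of 0.06, adjusted p = 5.96e-08 in edgeR). Tpm1 had 654, 641 and 668 CPM in rbMSC and 624, 629 and 581 in rcMSC: the rcMSC libraries lay below the rbMSC libraries, but the difference did not pass (log2 fold change -0.10 with an SE of 0.06, adjusted p = 0.181 in edgeR). Tpm4, of non-muscle filaments, was lower, at 1237, 1221 and 1275 CPM in rbMSC and 1018, 995 and 1096 in rcMSC (log2 fold change -0.26 with an SE of 0.06, adjusted p = 0.00456 in edgeR). The tropomyosins did not all move one way: Tpm3 was higher, at 623, 565 and 632 CPM in rbMSC and 823, 813 and 841 in rcMSC (log2 fold change 0.44 with an SE of 0.06, adjusted p = 0.000207 in edgeR). Tpm1 and Tpm2 together held 32% to 32.7% of the tropomyosin counts per kilobase in rbMSC and 22% to 25% in rcMSC. The ratio of Tpm2 to Tpm3 per kilobase was 0.935 to 1.02 in rbMSC and 0.249 to 0.293 in rcMSC.

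Calponins bind actin and damp the myosin ATPase. The smooth muscle form Cnn1 had 62.6, 62.9 and 64 CPM in rbMSC and 33.1, 36 and 29.8 in rcMSC (log2 fold change -0.94 with an SE of 0.08, adjusted p = 5.72e-06 in edgeR). The broadly made Cnn3 was higher in rcMSC, at 197, 207 and 198 CPM against 134, 141 and 146 (log2 fold change 0.51 with an SE of 0.06, adjusted p = 4.98e-05 in edgeR). Cnn2 differed least, at 197, 199 and 200.4 in rbMSC and 179, 180.2 and 181 in rcMSC (log2 fold change -0.15 with an SE of 0.05, adjusted p = 0.0366 in edgeR). That call was lost with the replicate number as a block (adjusted p = 0.105), with no low-count filter (0.081) and without any 1 of the libraries other than rcMSC replicate 3 (0.096 to 0.117). The share of Cnn1 among the calponins was 18.2% to 18.5% in rbMSC and 8.79% to 10.2% in rcMSC.

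Transgelins, small relatives of the calponins, fell together. Tagln (SM22), an abundant smooth muscle marker, had 1258, 1205 and 1308 CPM in rbMSC and 639, 667 and 725 in rcMSC (log2 fold change -0.89 with an SE of 0.07, adjusted p = 2.36e-06 in edgeR). Its broadly made paralog Tagln2 had 80.5, 80.7 and 84.5 in rbMSC and 52.3, 55.9 and 61.9 in rcMSC (log2 fold change -0.53 with an SE of 0.07, adjusted p = 0.00019 in edgeR). Tagln made up 95.8% to 96% of the pair's counts per kilobase in rbMSC and 94.7% to 94.9% in rcMSC, nearly all of it in both groups. The ratio of Tagln to Tagln2 per kilobase was 22.8 to 23.9 in rbMSC and 17.9 to 18.7 in rcMSC.

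Of other proteins of the thin filament, Lmod1 and Cald1 were lower and Smtn did not pass. Lmod1 (ENSRNOG00000051548, chromosome 13, 46754033 to 46794900, + strand), leiomodin, which starts new actin filaments in smooth muscle, had 254, 253 and 266 CPM in rbMSC and 86.1, 79.7 and 90.3 in rcMSC (log2 fold change -1.59 with an SE of 0.06, adjusted p = 2.58e-08 in edgeR). Cald1 (caldesmon), a brake on actomyosin, was among the most abundant of the set and measured 3295 ± 80.7 and 2151 ± 70.9 CPM (each ± SD, n = 3) (log2 fold change -0.62 with an SE of 0.06, adjusted p = 1.53e-05 in edgeR). Smtn (smoothelin), a protein of contractile smooth muscle, measured 148, 146 and 143 in rbMSC and 165, 180.5 and 138 in rcMSC. Here the groups overlapped and the test did not pass (log2 fold change 0.15 with an SE of 0.09, adjusted p = 0.189 in edgeR). Without rcMSC replicate 3 it did, at 0.25 (edgeR adjusted p = 2.16e-06), and with voom at 0.22 (0.00196). Of the exon bases of Smtn, 431 are shared with Selenom on the opposite strand, which had 19.5 CPM in rbMSC and 31.2 in rcMSC.

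Filamins cross-link actin into networks and tie it to the membrane. Flna, the ubiquitous filamin A, had the highest CPM of the set, 7384, 7365 and 7112 in rbMSC and 4028, 4028 and 5912 in rcMSC (log2 fold change -0.65 with an SE of 0.14, adjusted p = 0.00602 in edgeR). The third rcMSC library lay between the other two and the rbMSC libraries, and without it the value was -0.86. With no low-count filter Flna did not pass (adjusted p = 0.0503). Flnc, the muscle filamin C, had 463, 431 and 456 CPM in rbMSC and 454, 472 and 658 in rcMSC, with the high value again in the third library (log2 fold change 0.23 with an SE of 0.13, adjusted p = 0.186 in edgeR). Without that library its value was 0.04 (edgeR adjusted p = 0.33), and with the gene length trend removed it passed at 0.38 (0.0119). The share of Flnc among the filamins was 5.01% to 5.46% in rbMSC and 9.1% to 9.54% in rcMSC. It was higher in rcMSC, where the mean muscle-type share of the other 6 families was lower. For tropomyosins that share counts the mixed genes Tpm1 and Tpm2. Single genes could differ from their family: the mean share of Tpm1 was 14.7% in rbMSC and 15.95% in rcMSC. That of Ldb3 among the PDZ and LIM domain genes was 0.269% and 0.316%.

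**Figure D3:**
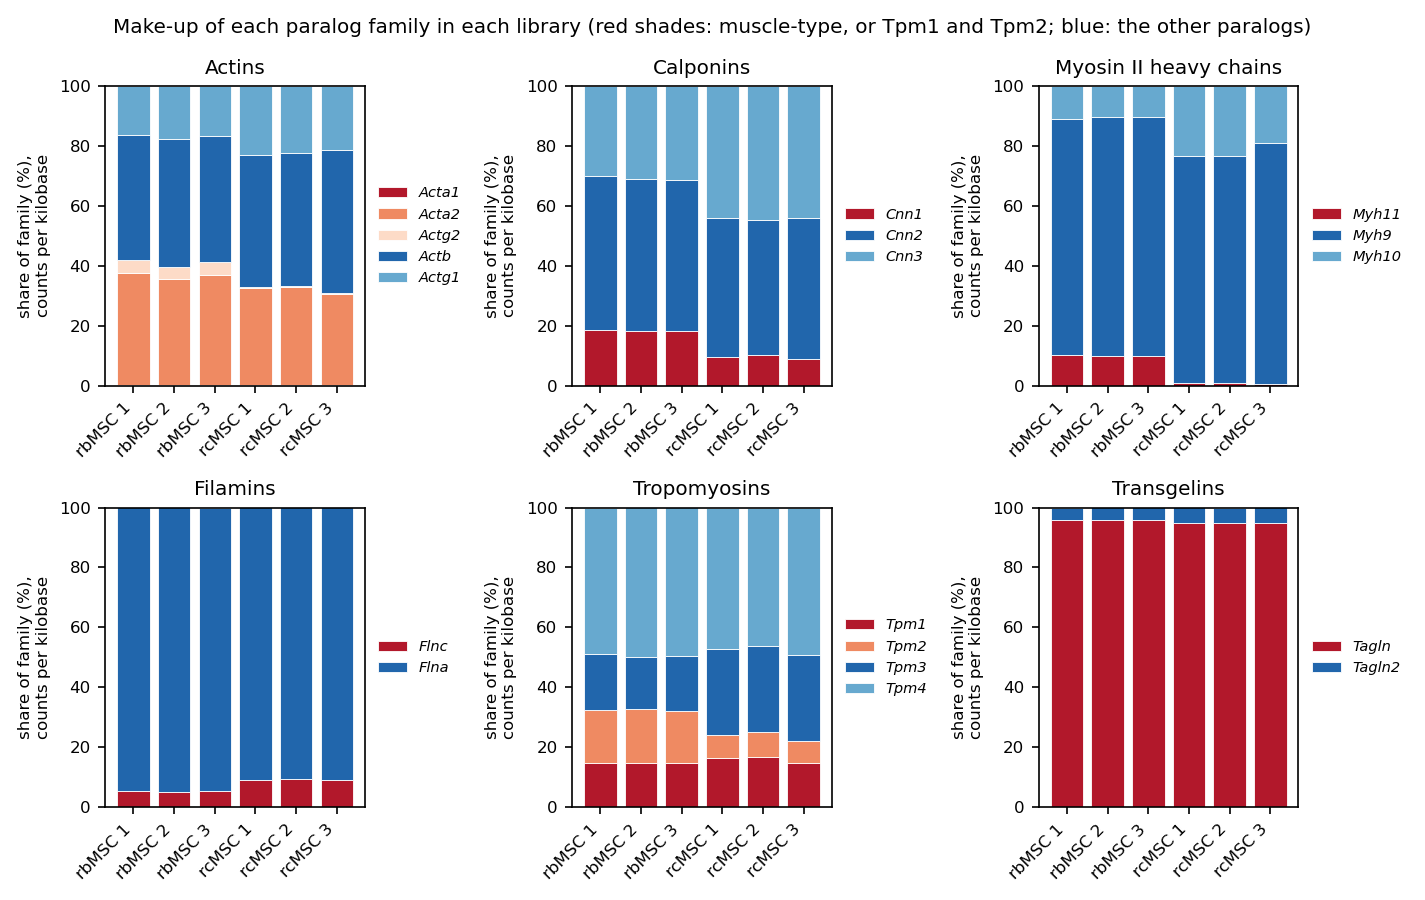
Share of each paralog (y axis, percent of the family's counts per kilobase) in each library, with muscle-type paralogs (and Tpm1 and Tpm2) in red shades and the others in blue. The red part is smaller in the 3 rcMSC libraries for actins, calponins, myosin heavy chains and tropomyosins, slightly smaller for transgelins and larger for filamins.

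Alpha-actinins and vinculin anchor actin bundles at adhesions, and all were lower in rcMSC. Vcl had 1319, 1401 and 1330.1 CPM in rbMSC and 713, 705 and 744 in rcMSC (log2 fold change -0.91 with an SE of 0.06, adjusted p = 7.17e-07 in edgeR). Actn4 (ENSRNOG00000020433, chromosome 1, 84182788 to 84251847, - strand) had 1459, 1441 and 1469.5 against 653, 662 and 862 (log2 fold change -1.01 with an SE of 0.10, adjusted p = 3.33e-05 in edgeR), and Actn1 1201, 1167 and 1209.5 against 597, 629 and 816 (log2 fold change -0.81 with an SE of 0.11, adjusted p = 0.000228 in edgeR). In both actinins the third rcMSC library lay between the other two and rbMSC, and without it their values were -1.15 and -0.96.

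PDZ and LIM domain proteins sit on actinin at the Z line of striated muscle and on stress fibres elsewhere. Pdlim5 (ENSRNOG00000016419, chromosome 2, 230952248 to 231120275, - strand), the most abundant of them here, had 774, 802 and 776 CPM in rbMSC and 263, 248 and 295 in rcMSC, the largest fall of the ubiquitous genes (log2 fold change -1.55 with an SE of 0.07, adjusted p = 7.24e-08 in edgeR). Pdlim7 had 114, 119.5 and 112 against 77.5, 79.6 and 85.2 (log2 fold change -0.51 with an SE of 0.06, adjusted p = 7.57e-05 in edgeR). The muscle-type Pdlim3 (ENSRNOG00000012658, chromosome 16, 46352467 to 46383657, - strand) was scarce, with 72, 103 and 83 counts in rbMSC and 7, 2 and 11 in rcMSC (log2 fold change -3.85 with an SE of 0.39, adjusted p = 2.55e-05 in edgeR). The value for Pdlim3 was -4.45 without rcMSC replicate 3. Ldb3, a Z line protein of heart and skeletal muscle, was also scarce, at 2.71, 2.55 and 2.77 CPM in rbMSC and 1.42, 1.69 and 1 in rcMSC (log2 fold change -0.96 with an SE of 0.23, adjusted p = 0.00739 in edgeR). Pdlim3 and Ldb3 together held 1.38% to 1.67% of the counts per kilobase of these 4 genes in rbMSC and 0.462% to 0.529% in rcMSC.

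Of the LIM-only proteins, Csrp1 was lower and Csrp2 higher. Csrp1 had 763, 786 and 788 CPM in rbMSC and 526, 545 and 595 in rcMSC (log2 fold change -0.49 with an SE of 0.06, adjusted p = 0.00012 in edgeR). Csrp2 (ENSRNOG00000003772, chromosome 7, 46348686 to 46367745, + strand), known from vascular smooth muscle, had 15.7, 16.4 and 14.4 CPM in rbMSC and 42.2, 38.7 and 28.6 in rcMSC, and was the only one of the 41 genes at least 2-fold higher in rcMSC (log2 fold change 1.24 with an SE of 0.14, adjusted p = 7.18e-05 in edgeR).

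Hspb7 (ENSRNOG00000029079, chromosome 5, 153727588 to 153731266, + strand), a small heat shock protein of heart and muscle, had 134, 138 and 138 counts in rbMSC and 6, 8 and 2 in rcMSC. In CPM this was 5.9 ± 0.406 against 0.198 ± 0.109 (each ± SD, n = 3) (log2 fold change -4.84 with an SE of 0.30, adjusted p = 6.54e-07 in edgeR). Synpo2, which bundles actin at the Z line, was the 1 muscle-type gene that was higher, at 5.15, 6.32 and 7.25 CPM in rbMSC and 9.65, 11.9 and 7.4 in rcMSC (log2 fold change 0.63 with an SE of 0.19, adjusted p = 0.0209 in edgeR). That call was lost when replicate 1 or 2 of either group was left out (adjusted p = 0.0502 to 0.0907). Des (desmin), the intermediate filament of muscle, was scarce in both groups, at 1.92, 3.03 and 2.69 CPM in rbMSC and 1.27, 1.29 and 2.32 in rcMSC, with overlap (log2 fold change -0.66 with an SE of 0.29, adjusted p = 0.088 in edgeR). Without rcMSC replicate 3 it passed at -0.99 (edgeR adjusted p = 0.00121), and with voom at -0.89 (0.00526).

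The regulators Myocd and Srf were lower as well. Myocd (ENSRNOG00000003669, chromosome 10, 49836641 to 49927627, - strand), myocardin, the SRF cofactor of smooth and cardiac muscle, had 46.3, 51.5 and 53.8 CPM in rbMSC and 6.3, 7 and 11.6 in rcMSC (log2 fold change -2.62 with an SE of 0.20, adjusted p = 2.18e-05 in edgeR). All rcMSC libraries lay well below the rbMSC ones, with the third highest among them, and the value without it was -2.93. Srf, the factor itself, fell less, from 48.3, 45.6 and 45.4 CPM in rbMSC to 30, 32.4 and 32 in rcMSC (log2 fold change -0.56 with an SE of 0.07, adjusted p = 9.58e-05 in edgeR).

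SRF acts through the CArG box, so the promoters of the genes above were searched for it. Windows of 300 bases around the start (250 before and 50 after) came from RefSeq on the GRCr8 build. They matched 33 of the 41 names, Synpo among them, with 37 windows for starts. A CArG box was found in 5 of the 37 windows (13.5%), those of Acta1, Ldb3, Actg1, Cnn2 and Srf, and in 1.64% of all 33469 windows. The list was chosen partly for known regulation by SRF, so a share above that of all windows is built in and tests nothing. The CArG box is a run of 6 A or T bases between a pair of C and a pair of G, and reads alike on both strands. A CArG-like element, with 1 C or G in the run of A and T, was found in 4 of the 37 windows (Acta1, Acta2 and 2 starts of Tpm3), against 8.1% of all windows. The windows for Myh11, Tagln, Myocd, Lmod1, Myl9, Pdlim3, Actb and Actn4 were not used here, and many SRF sites are known to lie outside such short windows.

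The 150 bases before the start are shown for the genes with a CArG box and for Acta2, the most abundant muscle-type gene, so that the elements can be compared between genes with small and larger falls. Each is written 5′ to 3′ on the gene's own strand in lower case, with CArG boxes and CArG-like elements in capitals.
Acta2 (chr1:241172504-241172653, - strand): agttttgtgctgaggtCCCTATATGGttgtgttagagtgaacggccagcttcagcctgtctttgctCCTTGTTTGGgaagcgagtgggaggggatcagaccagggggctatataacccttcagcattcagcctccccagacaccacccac
Acta1 (chr19:68784195-68784344, - strand): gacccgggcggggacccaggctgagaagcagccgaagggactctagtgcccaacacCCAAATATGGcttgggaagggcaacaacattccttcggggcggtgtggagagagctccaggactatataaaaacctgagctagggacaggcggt
Ldb3 (chr16:9924680-9924829, - strand): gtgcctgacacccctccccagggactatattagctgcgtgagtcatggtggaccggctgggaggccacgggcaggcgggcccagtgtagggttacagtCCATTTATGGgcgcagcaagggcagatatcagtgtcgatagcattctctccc
Actg1 (chr10:106120952-106121101, - strand): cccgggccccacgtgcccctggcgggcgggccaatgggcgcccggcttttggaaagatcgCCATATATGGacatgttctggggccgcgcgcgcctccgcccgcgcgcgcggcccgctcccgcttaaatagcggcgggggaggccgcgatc
Cnn2 (chr7:10370313-10370462, - strand): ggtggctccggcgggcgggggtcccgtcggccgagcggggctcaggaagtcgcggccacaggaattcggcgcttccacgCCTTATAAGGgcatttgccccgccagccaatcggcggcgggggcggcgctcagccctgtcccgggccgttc
Srf (chr9:21923926-21924075, + strand): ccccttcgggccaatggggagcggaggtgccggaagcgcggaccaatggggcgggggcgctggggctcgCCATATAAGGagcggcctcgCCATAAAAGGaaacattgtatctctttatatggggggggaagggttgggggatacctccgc

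In Acta2 both capital runs are CArG-like, beginning 134 and 84 bases before the start. Acta1 has its CArG box 94 bases before the start, Ldb3 52, Actg1 90 and Cnn2 71, and Srf carries a pair at 81 and 61. Beside these sequences stand log2 fold changes of -1.91 for Acta1, -0.96 for Ldb3, -0.93 for Acta2, -0.56 for Srf, -0.34 for Actg1 and -0.15 for Cnn2. Tpm3, whose sequence is not shown, has a CArG-like element 66 bases before a start. Unlike the genes shown, Tpm3 was higher in rcMSC, with a log2 fold change of 0.44. CArG boxes were found in 2 of 10 muscle-type windows, 3 of 19 ubiquitous windows and 0 of 8 mixed windows. The windows of several muscle-type genes, Myh11 and Tagln among them, were not used, so the classes are not compared. No match was found in these windows for Mylk, Actg2, Hspb7 or Tpm2, which says only that these letters are not in these windows. The letters CATTCC, the core of the MCAT element, were found on either strand in 10 of the 37 windows and in 14.2% of all windows.

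Other genes of the pathway were taken from lists chosen by name, with earlier results of these data known. Over all genes tested, 23.2% were lower and 22.6% higher. Further genes listed as targets of SRF or its MRTF cofactors numbered 24. They include immediate early genes, Egr3 among them, and do not single out MRTF. Of the 24, 20 were lower, 0 were higher and 4 did not pass in edgeR. Their median was -0.55. The number higher was also 0 at an unadjusted p under 0.05, in DESeq2 and in voom. Fhl2, a LIM protein induced by MRTF, fell from 63 ± 1.11 to 12 ± 0.54 CPM (each ± SD, n = 3) (log2 fold change -2.39 with an SE of 0.07, adjusted p = 3.92e-09 in edgeR). Filip1l fell from 75 ± 1.84 to 22.4 ± 2.08 CPM (log2 fold change -1.74 with an SE of 0.08, adjusted p = 6.88e-08 in edgeR), and Egr3, an immediate early factor, by 1.70 on the log2 scale (edgeR adjusted p = 0.000266). Without rcMSC replicate 3, 22 were lower. The 4 that did not pass with all libraries were Ccn2 (0.05), Itga5 (-0.07), Mcl1 (-0.09) and Ankrd1 (0.65).

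Of 25 other smooth muscle genes tested, 20 were lower, 3 were higher and 2 did not pass, with a median of -1.22. Of the falls, 14 were at least 2-fold. Over all genes tested, 23.2% were lower, 22.6% higher and 8.53% lower by at least 2-fold. Susd5 fell from 368 ± 3.23 to 3.8 ± 1.22 CPM (each ± SD, n = 3) (log2 fold change -6.61 with an SE of 0.17, adjusted p = 1.48e-08 in edgeR). Kcnmb1, the beta subunit of the calcium-activated potassium channel of smooth muscle, fell from 7.19 ± 0.927 to 0.251 ± 0.244 CPM (log2 fold change -4.81 with an SE of 0.41, adjusted p = 1.31e-05 in edgeR), or to -5.91 without rcMSC replicate 2. Itga7, a laminin receptor of muscle, fell from 52.5 ± 1.25 to 2.17 ± 0.781 CPM (log2 fold change -4.61 with an SE of 0.18, adjusted p = 6.41e-08 in edgeR). The 3 that were higher, Npnt (1.77), Itga8 (0.81) and Nrip2 (0.77), were named after their values were seen; nephronectin, made by Npnt, is the ligand of the integrin that Itga8 encodes.

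Markers of striated muscle were low in both groups. Of its 29 markers found, 12 entered the test: 1 was lower (8.33%), 2 were higher (16.7%) and 9 did not pass. Over all genes tested, 23.2% were lower and 22.6% higher. Myod1, Pax7 and Myl2 had no count in any library, where 3 counts of the total would be 0.0201 CPM. The summed level was 35.4 to 41.4 CPM in rbMSC and 27.4 to 46.1 in rcMSC. Actn2, an actinin of the Z line, was at 14.7 ± 1.67 CPM in rbMSC and 6.27 ± 2.65 in rcMSC (log2 fold change -1.23 with an SE of 0.26, adjusted p = 0.00488 in edgeR). Myh3, the embryonic heavy chain, was at 0.131 ± 0.115 and 2.46 ± 0.159 CPM (log2 fold change 4.20 with an SE of 0.42, adjusted p = 2.41e-05 in edgeR), or 5.15 without rbMSC replicate 2, and Tnnt2, cardiac troponin T, at 0.338 ± 0.171 and 1.69 ± 0.199 (log2 fold change 2.28 with an SE of 0.37, adjusted p = 0.000612 in edgeR).

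Markers of other cell types were read beside these genes, against 23.2% lower and 22.6% higher of all genes tested. Of 7 pericyte markers tested, 6 were lower and 1 higher, and the summed level of the 9 in the table was 1975 to 2008 CPM in rbMSC and 695 to 829.9 in rcMSC. Rgs5 (-6.33), Mcam (-4.24) and Notch3 (-4.17) fell most, and Vtn had no count in any library. Pericytes share much of the smooth muscle programme, and the part of such cells in the falls of Myh11, Actg2, Mylk and the others was not tested. Of 11 macrophage markers tested, 6 were lower and 5 did not pass, with summed levels of 674 to 691 CPM in rbMSC and 363 to 438 in rcMSC for the 12 in the table. Cd74 (-2.13), Ptprc (-1.57) and Csf1r (-1.53) fell most, and the part of macrophages in the levels of the actin genes was not tested. Endothelial markers summed to 44 to 45.3 and 36.2 to 38.1 CPM, with 2 lower (Erg and Tie1, -0.52 and -0.50), 1 higher (Tek, 0.90) and 5 of 8 that did not pass. Tie1 did not pass without rbMSC replicate 2 (adjusted p = 0.0512).

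**Figure D4:**
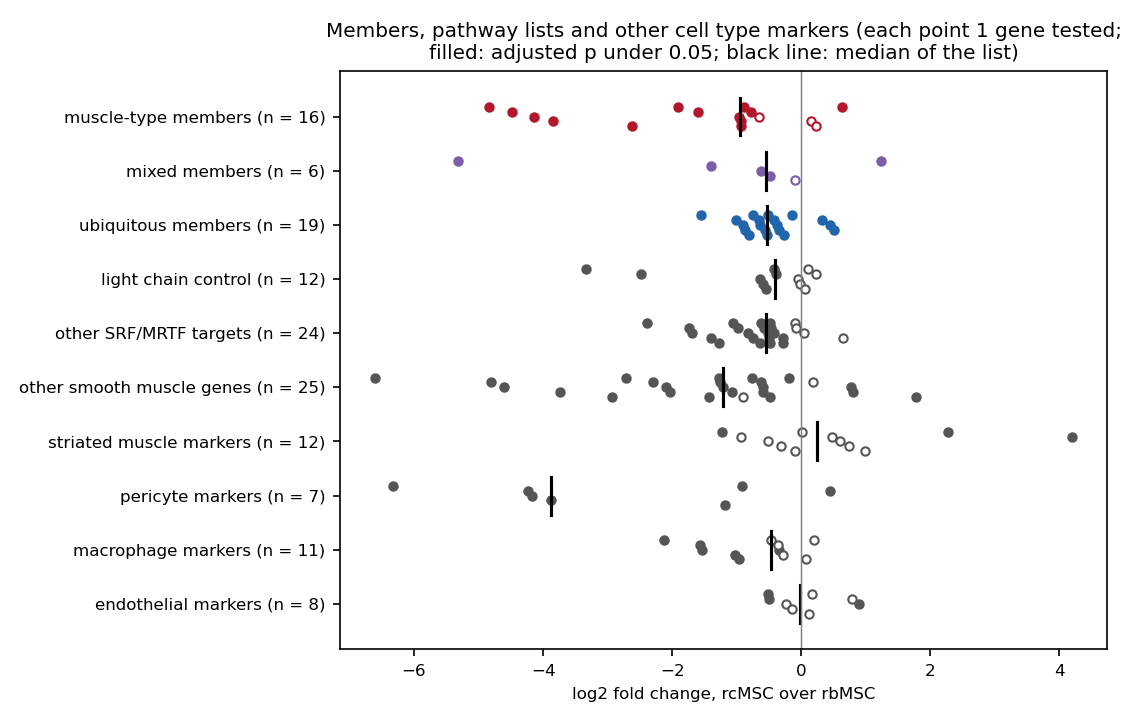
Log2 fold change (x axis, rcMSC over rbMSC) of every gene tested in the 3 classes, in 3 pathway lists and in 4 lists of other cell types (rows; filled points passed an adjusted p of 0.05, open ones did not; the black line is the list's median). The muscle-type genes, the other smooth muscle genes and the pericyte markers reach below -4, while the ubiquitous genes stay between -1.55 and 0.51.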

How the data were processed

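RNA was measured in 6 libraries, 3 per origin, grouped by their titles. Per the labels' protocols, the authors trimmed paired reads of 150 nt by Trimmomatic 0.39 and Trim Galore 0.6.7, aligned them by STAR 2.7.9a to mRatBN7.2 and deposited raw counts per gene from featureCounts 2.0.1, with no normalization. The submitters' processing notes also list DESeq2 1.20.0. For strand setting, multi-mapped reads and annotation release, the sources used here state nothing. Per the file headers, the deposited table also holds gene lengths in bases, another kind of value, used for levels per kilobase. Gene positions are those of the table in mRatBN7.2; promoter windows are RefSeq's in GRCr8.

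The test was edgeR 4.0.16 (R 4.3.3), quasi-likelihood with robust dispersions, TMM scaling and the default filterByExpr filter, with Benjamini-Hochberg adjustment over 14836 genes. Each SE was derived from the fold change and its F statistic. The procedure was tested on simulated data. Alternatives were other scalings and filters, DESeq2 1.42.0, limma 3.58.1 voom with quality weights, dispersions that were not robust, the replicate number as a block, the gene length trend removed, and each library left out.

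The genes, their classes and the other lists were chosen with earlier results of these data known. Every library's value was to be given for members changed at least 2-fold, their paralogs, Srf and Myocd, and up to 3 genes named per other list, by size of change among genes whose mean log2 CPM was 0 or more. Other genes with values were named after these were seen. A pathway list and a marker list are not reported here. The depth leaves counting error large for Hspb7, Pdlim3, Ldb3 and Des.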

Additional observations from a re-analysis of the deposited data

How the results depend on the processing

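The number of genes lower in rcMSC was 30 to 33 of 41 over 17 alternatives. By class it was 12 to 13 of 16 muscle-type, 4 of 6 mixed and 14 to 16 of 19 ubiquitous genes. The number lower over all genes tested moved with the setting. It was 3445 of 14836 in the main fit, 3480 of 21671 with no low-count filter and 4558 of 15096 without rcMSC replicate 3. No gene named reversed its direction with a call. Same-numbered libraries of the 2 groups did not deviate together (r = -0.0275, 0.018 and -0.0518 over genes for replicates 1 to 3), and not every library correlated best with its own number; with the replicate block 31 were lower and 5 higher. The single muscle-type gene that was higher became 2 with voom, with the gene length trend removed and with the mixed genes counted in the class, 0 at an adjusted p of 0.01, and 0 to 2 without 1 library. Shares of muscle-type paralogs moved by construction when counts were not divided by length. In rbMSC and rcMSC these were then 34.3% and 26.6% for actins, 93.9% and 92.3% for transgelins, 15.7% and 7.96% for calponins, 7.48% and 0.559% for myosin heavy chains, 5.82% and 10.2% for filamins, 44.3% and 33.1% for tropomyosins, and in rbMSC 0.704% for PDZ-LIM proteins. The direction between groups was the same for these 6 families. Counting Tpm1 and Tpm2 as ubiquitous leaves no muscle-type tropomyosin, so that share has no value. No scaling moved the median over all genes by more than 0.1.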

Other observations

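Replicate 3 of rcMSC was compared with the mean of replicates 1 and 2 over the 41 genes. It was higher by more than 0.3 on the log2 scale in 8 of them (19.5%), with no constant added. Over all genes tested, with 0.1 CPM added to both sides of the ratio, the share was 16.8%. The share of the 41 was thus near the background. The 8 were Pdlim3 (1.42), Des (0.86), Myocd (0.80), Myh9 (0.58), Flna (0.55), Flnc (0.51), Actn1 (0.41) and Actn4 (0.39). Over all genes tested this difference ran with gene length at a Spearman correlation of 0.23, given as a description across genes, which are not independent replicates.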
